A study of Mus musculus with 6 samples.

Results

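The BCL2 family genes Bcl2, Bcl2l1, Mcl1, Bcl2a1b, Bcl2a1d, Bcl2l11, Bak1, Bid, Bad and Bmf were followed in sorted regulatory T cells (Tregs) with and without an induced deletion of Zfp335, a zinc finger transcription factor. These members were taken by gene symbol, with no threshold on a measured value, and they make up 10 of the 32285 rows of the count table. Bax, Bbc3 and Pmaip1, which belong to the same family, were not members and are given only for comparison. Bulk RNA-Seq was performed on CD4+CD25+ cells from the spleens of C57BL/6 mice, with 3 libraries per group. The KO group carried loxP-flanked Zfp335 on both alleles together with ERCre, a Cre recombinase fused to a mutant estrogen receptor that enters the nucleus when tamoxifen is given (ERCre Zfp335fl/fl). The WT group is described by the study's methods as ERCre mice and by the labels as littermates that were wild type. By the same methods, mice of both groups received 3 injections of tamoxifen (10 mg/mL in corn oil) at 6 weeks of age, on days 1, 3 and 5, and were sacrificed on day 7, whereas the labels do not mention tamoxifen. The ERCre used is not stated to be limited to Tregs, the promoter that drives it is not given in the sources used here, and neither is whether a library came from 1 mouse or from a pool.

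The BCL2 family sets the threshold at which a cell dies through its mitochondria. The effector proteins Bak1 and Bax open the outer mitochondrial membrane, which frees cytochrome c and starts the caspase cascade. Anti-apoptotic members hold the effectors in check, and BH3-only members, which share just the short BH3 helix with the rest of the family, bind the groove of the anti-apoptotic proteins or engage the effectors. Tregs depend on Mcl1, and their lifespan is limited by Bcl2l11 (Bim), the BH3-only protein that responds to loss of cytokine.

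The BH3 stretch is shown for all members because it is the part through which these proteins bind each other. Each line is the coding strand of the GRCm38 reference (the build also called mm10), read from the GENCODE M21 transcripts and printed 5′ to 3′, with the 8 codons of the BH3 core in capitals.
Bcl2: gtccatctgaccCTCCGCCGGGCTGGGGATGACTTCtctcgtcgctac
Bcl2l1: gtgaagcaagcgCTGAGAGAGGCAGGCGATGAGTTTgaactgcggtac
Mcl1: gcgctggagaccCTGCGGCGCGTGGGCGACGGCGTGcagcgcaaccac
Bcl2a1b: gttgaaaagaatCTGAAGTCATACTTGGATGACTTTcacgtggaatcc
Bcl2a1d: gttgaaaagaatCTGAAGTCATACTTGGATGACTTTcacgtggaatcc
Bak1: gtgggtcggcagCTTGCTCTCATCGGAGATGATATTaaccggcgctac
Bcl2l11: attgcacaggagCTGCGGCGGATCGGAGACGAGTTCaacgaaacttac
Bid: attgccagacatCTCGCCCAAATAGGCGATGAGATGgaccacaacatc
Bad: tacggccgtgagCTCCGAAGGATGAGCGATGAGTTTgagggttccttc
Bmf: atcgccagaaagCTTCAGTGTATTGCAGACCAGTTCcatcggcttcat
The capitals open with a leucine codon in all 10 genes. In Bcl2, Bcl2l1, Mcl1, Bak1, Bcl2l11 and Bid a glycine codon and an aspartate codon follow after 3 further codons, while Bcl2a1b, Bcl2a1d, Bad and Bmf have another codon in place of the glycine. The stretches of Bcl2a1b and Bcl2a1d are the same base for base. All stretches lie within coding exons, on the plus strand at chr3:95659424-95659471 (Mcl1), chr9:89199501-89199548 (Bcl2a1b), chr2:128147138-128147185 (Bcl2l11) and chr19:6950780-6950827 (Bad). Those on the minus strand are at chr1:106712566-106712613 (Bcl2), chr2:152829688-152829735 (Bcl2l1), chr9:88731531-88731578 (Bcl2a1d), chr17:27022522-27022569 (Bak1), chr6:120897280-120897327 (Bid) and chr2:118545091-118545138 (Bmf).

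Bcl2a1b and Bcl2a1d are copies of the A1 gene on mouse chromosome 9, and the start of their coding sequences is shown because many reads from one cannot be told from reads of the other. Positions are counted from 1 at the first base of the start codon. Over these 100 bases the copies differ at the 3 bases in capitals.
Bcl2a1b: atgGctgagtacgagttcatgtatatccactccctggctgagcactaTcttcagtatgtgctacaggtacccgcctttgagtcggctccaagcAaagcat
Bcl2a1d: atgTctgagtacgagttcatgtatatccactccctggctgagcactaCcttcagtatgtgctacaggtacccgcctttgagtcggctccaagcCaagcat
The first line is chr9:89199360-89199459 on the plus strand and the second is chr9:88731620-88731719 on the minus strand. Over the whole coding sequence of 516 bases the copies differ at 6 bases, from Bcl2a1b to Bcl2a1d G4T, T48C, A94C, G312A, C381G and T490A, and are 98.84% identical. These bases change 4 of 172 codons to a codon for another amino acid. The longest stretch without a difference is 217 bases. Of the 50-base stretches of their transcripts, 79.2% in Bcl2a1b and 79.5% in Bcl2a1d also occur in transcripts of other genes, which include Bcl2a1a and the overlapping Gm29094. Between these copies alone, 57.6% of the stretches of Bcl2a1b and 54.3% of those of Bcl2a1d are shared. The third expressed copy, Bcl2a1a, differs from Bcl2a1b at 11 coding bases. How the counting handled such reads is not given in the sources used here, so values of single A1 copies are uncertain.

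The libraries held between 133283969 and 209041812 counts, and the values below are CPM (edgeR's counts relative to the scaled library size) after TMM scaling, whose factors lay between 0.987 and 1.014. The table holds 620 values of 1 and 1045 values of 2 but 2579 values of 4, so totals do not give the number of independent fragments and no counting interval is given. The targeted gene Zfp335 fell from a WT mean of 120.1 ± 4.67 CPM to 14.8 ± 0.451 CPM after deletion (SD, n = 3 each). Treg and T cell markers were high in all 6 libraries: the 6 markers summed to 3353 to 3393 CPM in WT and 3434 to 3491 CPM in KO, and none was under 294.6 CPM in any library. Of these 6 markers, 1 was higher and 2 were lower in KO (edgeR, adjusted p under 0.05). For this and the marker counts below, 12% of all genes tested were higher in KO and 12.1% were lower. Markers of several other cell types were also counted. The summed level of 5 B cell markers was 45.5 to 49.5 CPM in WT and 21.1 to 23.0 CPM in KO, with all 5 lower. For 5 neutrophil markers it was 16.7 to 22.1 CPM against 0.857 to 1.17 CPM, and for 5 red cell markers 35.9 to 42.9 CPM against 1.67 to 2.15 CPM, with all 5 lower in each list. For 5 macrophage and dendritic cell markers it was 39.4 to 43.0 CPM against 26.3 to 29.0 CPM, with 2 of 5 called lower. For 5 CD8 T and NK cell markers the ranges overlapped, at 15.5 to 16.5 CPM against 14.6 to 16.0 CPM, with 1 of 5 called lower. No marker was at 0 in all libraries. Xist went from 0.272 ± 0.132 CPM in WT to 134.6 ± 10.4 CPM in the KO libraries (SD, n = 3 each), whereas the Y-linked Ddx3y was at 102.7 ± 3.88 and 78.7 ± 1.81 CPM and the Y-linked Eif2s3y at 46.6 ± 2.86 and 46.9 ± 1.46 CPM (SD, n = 3 each). Whether a KO library pooled mice of both sexes is not given in the sources used here. The sex of the cells and the genotype can therefore not be told apart. The part of other cells and of sex in the values of the BCL2 family below was not tested.

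The question was whether RNA of survival and death genes of this family differed once Zfp335 was deleted. All 10 members passed edgeR's expression filter and were tested together with 17307 genes in all. At an adjusted p under 0.05 (edgeR quasi-likelihood test, Benjamini-Hochberg adjustment over all genes tested), Bcl2, Bcl2l1, Bcl2a1b and Bmf rose in KO, Bak1 and Bid fell, and Mcl1, Bcl2a1d, Bcl2l11 and Bad did not pass. Thus 6 of 10 members were called, where 24.1% of all genes tested were called, 12% as higher and 12.1% as lower. Among the genes at or above the average level of Bmf, the lowest member, 32.1% were called. The changes were small. None of the members reached 1.5-fold, which together with the adjusted p was met by 5.59% of all genes tested. The groups did not overlap for 7 of the 10 members, against 38.3% of all genes tested. Each of these 7 had an exact permutation p of 0.1 (two-sided), the smallest that 3 against 3 libraries can give. The median log2 fold change of the members was 0.12, and -0.0042 over all genes tested. In bulk RNA, a lower value from fewer cells of a type and one from less RNA per cell cannot be told apart.

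**Figure D1:**
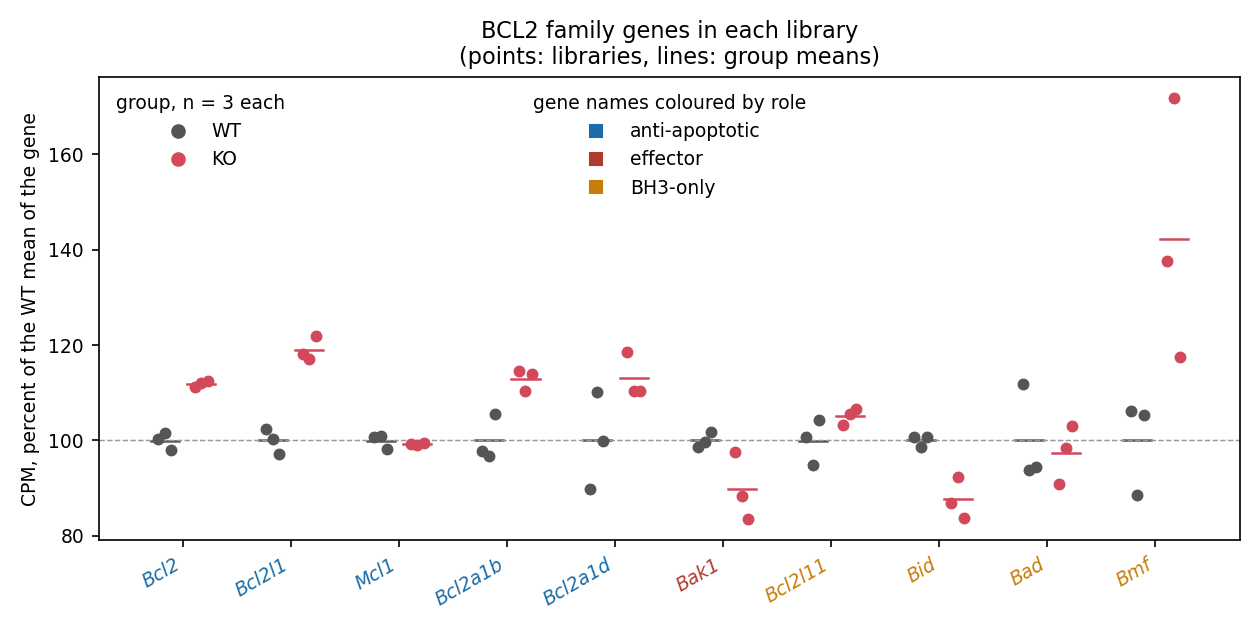
CPM of each member in each library as a percent of the mean of the 3 WT libraries, with WT in grey and KO in red; points are libraries and short lines are group means. The KO points lie above all WT points for Bcl2, Bcl2l1, Bcl2a1b, Bcl2a1d and Bmf and below them for Bak1 and Bid.

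By role, 3 of the 5 anti-apoptotic members rose and none fell, the single effector member fell, and of the 4 BH3-only members 1 rose, 1 fell and 2 did not pass, where 12% of all genes tested rose and 12.1% fell. Of these calls, those of Bcl2a1b, Bak1, Bid and Bmf were each lost in 2 to 4 of the 6 fits that left out 1 library. The median log2 fold change was 0.17 over the anti-apoptotic members and 0.017 over the BH3-only members. These counts and medians leave out the effector Bax and the BH3-only genes Bbc3 and Pmaip1. All of these rose, with log2 fold changes of 0.48, 0.69 and 0.79. Bcl2a1b and Bcl2a1d make up 2 of the 5 anti-apoptotic members, although many of their reads cannot be told apart.

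**Figure D2:**
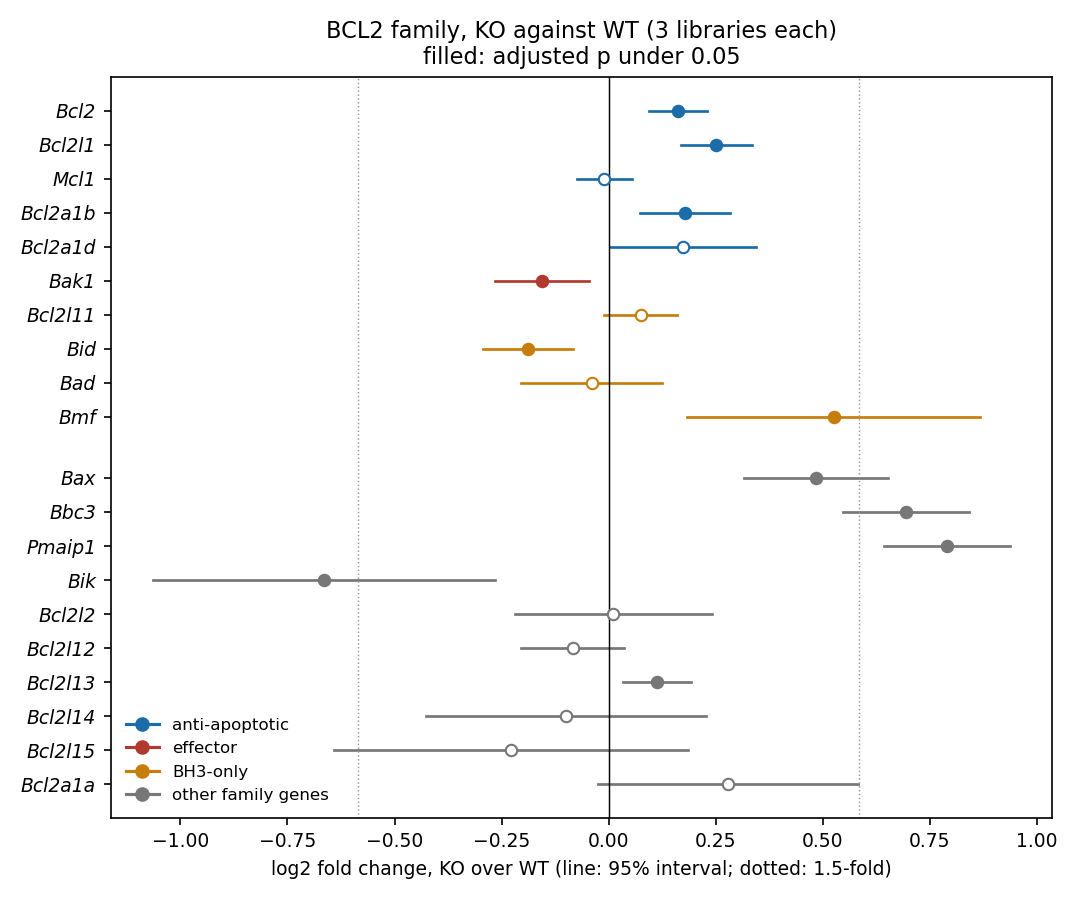
Log2 fold change of KO over WT with its 95% interval for the 10 members, coloured by role, and for the 10 other family genes that were tested, in grey; filled points passed an adjusted p under 0.05 and dotted lines mark 1.5-fold. The points of all members lie inside the dotted lines, while those of Bbc3, Pmaip1 and Bik lie outside.

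Among the anti-apoptotic members, Bcl2 and Bcl2l1 rose most clearly. Bcl2, the founding member of the family, lies on the minus strand at chr1:106538178-106714274. It was at 221.6, 224.4 and 216.3 CPM in WT and at 245.6, 247.4 and 248.3 CPM in KO. All 3 KO libraries lay above all 3 WT libraries, and they were within 3 CPM of each other. The increase of 11.9% corresponds to a log2 fold change of 0.16 (SE 0.031, 95% interval 0.095 to 0.23, adjusted p = 0.00199 by edgeR). Its antisense neighbour D630008O14Rik was at no more than 0.275 CPM in any library. Bcl2l1, which encodes Bcl-xL, lies at chr2:152780668-152831728 on the minus strand and shares no 50-base stretch with other transcripts. Its values were 59.1, 57.8 and 56.0 CPM in WT and 68.1, 67.5 and 70.3 CPM in KO. The groups were again apart, and the gap between them was wider than the range within either. Its log2 fold change of 0.25 (SE 0.038, 95% interval 0.17 to 0.33, adjusted p = 0.000361 by edgeR) corresponds to an increase of 19.0%. Both genes were called with each of the 6 libraries left out in turn.

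Mcl1, a short-lived protein on which lymphocytes depend, differed by less than the spread between libraries. The gene lies at chr3:95658788-95663176 on the plus strand. It was counted at 648.7, 650.3 and 632.2 CPM in WT and at 639.7, 638.0 and 640.2 CPM in KO. The 3 KO values sat between the WT values (exact permutation test, two-sided p = 0.4). The 95% interval of its log2 fold change ran from -0.075 to 0.054 (point -0.010, adjusted p = 0.854 by edgeR), which is a change between -5.05% and 3.85%.

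The A1 genes encode a small anti-apoptotic protein induced by antigen receptor and NF-kB signals. Bcl2a1b (chr9:89199209-89207827, plus strand) was at 26.9, 26.6 and 29.0 CPM in WT and at 31.5, 30.3 and 31.3 CPM in KO. Every KO library was above every WT library, although WT 3 came within 2 CPM of the lowest KO library. This gave a log2 fold change of 0.18 (SE 0.049, 95% interval 0.074 to 0.28, adjusted p = 0.0167 by edgeR). The call was lost without WT 2, without KO 1 or without KO 3, with adjusted p of 0.0929, 0.0692 and 0.0652 by edgeR. Bcl2a1d (chr9:88723285-88731914, minus strand) was at 8.87, 10.9 and 9.85 CPM in WT and at 11.7, 10.9 and 10.9 CPM in KO. The KO libraries were above the WT libraries only narrowly, since WT 2 was level with KO 2 and KO 3 to 3 digits. Its log2 fold change of 0.17 was close in size to that of Bcl2a1b but did not pass (SE 0.079, 95% interval 0.0039 to 0.34, adjusted p = 0.135 by edgeR), and it ranged from 0.093 without WT 1 to 0.26 without WT 2. The log2 ratio of Bcl2a1d to Bcl2a1b counts was -1.48 ± 0.169 in WT and -1.48 ± 0.048 in KO (SD, n = 3 each), with no difference beyond the spread. How reads shared by the copies were counted is not known, so this ratio cannot show whether the copies themselves kept their proportion. Bcl2a1a, with 1.78 ± 0.14 CPM in the WT and 2.19 ± 0.253 CPM in the KO libraries (SD, n = 3 each), did not pass either (log2 fold change 0.28, adjusted p = 0.182 by edgeR). With the counts of Bcl2a1a, Bcl2a1b and Bcl2a1d summed to 1 feature, which avoids the split between copies, the log2 fold change was 0.18 (SE 0.044, adjusted p = 0.00869 by edgeR). The annotation also holds Gm29094, a gene that overlaps Bcl2a1b on the same strand and has no row of its own in the table.

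Bak1, the only pore-forming effector among the members, fell. It lies at chr17:27019810-27029009 on the minus strand. Its values were 66.7, 67.3 and 68.8 CPM in WT and 65.9, 59.8 and 56.4 CPM in KO. KO 1 was within 1 CPM of the lowest WT library, and the KO libraries spread over a wider range (SD 4.82 CPM) than the WT libraries (SD 1.1 CPM). The log2 fold change was -0.16 (SE 0.051, 95% interval -0.27 to -0.045, adjusted p = 0.0415 by edgeR), a change of -10.2%. The call was lost without WT 2, WT 3, KO 2 or KO 3, with adjusted p of 0.118, 0.0783, 0.149 and 0.195 by edgeR. Ggnbp1 runs opposite to Bak1, and 17.1% of the 50-base stretches of Bak1 also occur in its transcripts. It was far lower in count, with means of 3.74 ± 0.32 (WT) and 4.33 ± 0.373 CPM (KO) (SD, n = 3 each, adjusted p = 0.183 by edgeR). Whether the counting used strand is not given in the sources used here, so reads of both genes cannot be told apart where they overlap.

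Of the BH3-only members, Bid fell and Bmf rose. Bid, which caspase-8 cleaves to link death receptors to mitochondria, lies at chr6:120891930-120916853 on the minus strand. It was at 30.3, 29.7 and 30.3 CPM in WT and at 26.2, 27.8 and 25.2 CPM in KO. The WT libraries were within 1 CPM of each other and all above the KO libraries. Its log2 fold change was -0.19 (SE 0.049, 95% interval -0.29 to -0.083, adjusted p = 0.0131 by edgeR), a change of -12.3%, and the call was lost without KO 1 (adjusted p = 0.0566) or without KO 3 (adjusted p = 0.0738). Bcl2l13, another family gene, lies opposite Bid and shares 16.4% of the 50-base stretches of Bid. It moved the other way, from 65.1 ± 1.03 to 70.4 ± 1.47 CPM (SD, n = 3 each, log2 fold change 0.11, adjusted p = 0.0394 by edgeR).

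Bmf encodes a BH3-only protein that is held at the cytoskeleton and freed by stress or detachment, and its gene lies at chr2:118528757-118549687 on the minus strand. It was the member with the lowest counts, at 2.11, 1.76 and 2.09 CPM in WT and 2.73, 3.41 and 2.33 CPM in KO. KO 2 was the highest and KO 3 lay closest to WT, with no overlap between groups. The log2 fold change of 0.53 was the largest of the members and also the least precise (SE 0.16, 95% interval 0.18 to 0.87, adjusted p = 0.0282 by edgeR), with an increase of 44.0% whose interval runs from 13.6% to 82.5%. The call was lost without WT 2, KO 1 or KO 2, with adjusted p of 0.141, 0.0615 and 0.148 by edgeR. Without KO 2 the log2 fold change was 0.36. Without KO 3 it was 0.65 (adjusted p = 0.0144 by edgeR), which is past 1.5-fold.

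Bcl2l11 and Bad did not pass. Bcl2l11 (chr2:128126038-128162547, plus strand) was at 109.8, 103.3 and 113.5 CPM in WT and at 112.4, 115.0 and 116.1 CPM in KO. The groups overlapped because WT 3 exceeded KO 1 (exact permutation test, two-sided p = 0.2). The log2 fold change was 0.074 (SE 0.039, 95% interval -0.011 to 0.16, adjusted p = 0.204 by edgeR), and it was 0.038 without WT 2 and 0.11 without WT 3. Bad, a BH3-only protein that survival kinases inactivate by phosphorylation, lies at chr19:6941861-6951899 on the plus strand. Its values were 17.6, 14.7 and 14.8 CPM in WT and 14.3, 15.5 and 16.2 CPM in KO. WT 1 was the highest of all 6 libraries and KO 1 the lowest, whereas the other WT libraries lay below the other KO ones (p = 0.8, two-sided exact permutation test). The log2 fold change of -0.040 (SE 0.076, 95% interval -0.20 to 0.13, adjusted p = 0.765 by edgeR) turned positive without WT 1 (0.052) or without KO 1 (0.0081). Gpr137, which overlaps Bad on the other strand with 17.2% of its 50-base stretches shared, was counted at a level near that of Bad, with means of 14.7 ± 1.07 (WT) and 16.2 ± 0.673 CPM (KO) (SD, n = 3 each, adjusted p = 0.169 by edgeR).

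**Figure D3:**
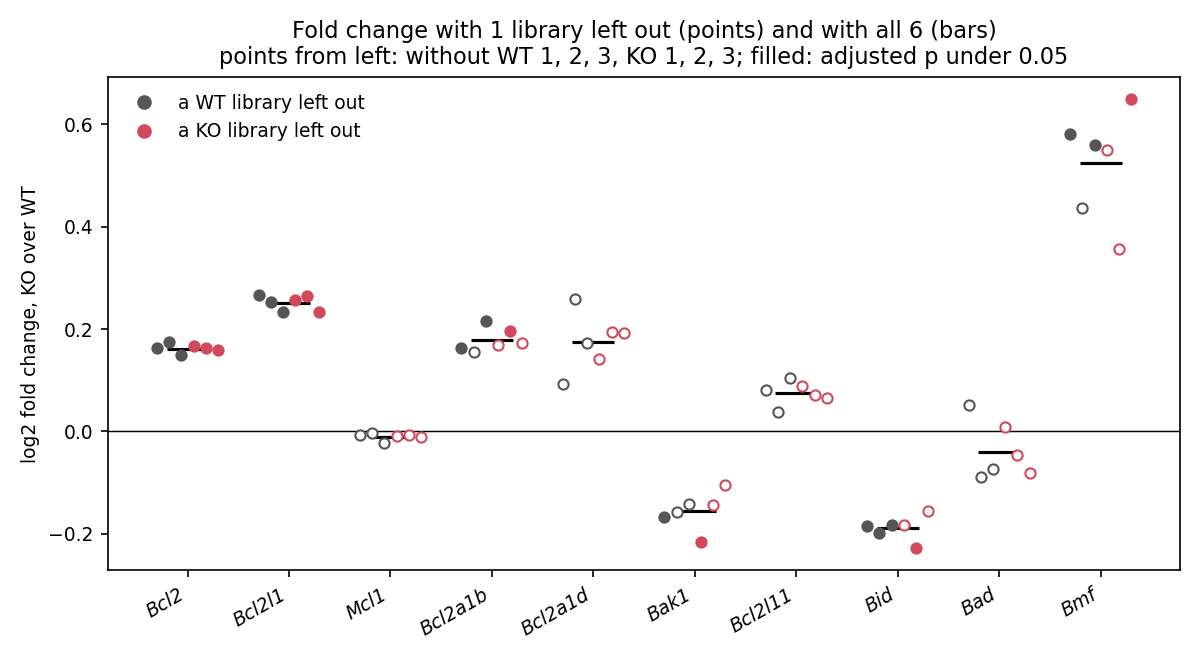
Log2 fold change of KO over WT for each member with 1 library left out (points, ordered WT 1 to 3 and KO 1 to 3) and with all 6 (bars); filled points passed an adjusted p under 0.05. All 6 points are filled for Bcl2 and Bcl2l1, 2 for Bak1, 4 for Bid, and 3 each for Bcl2a1b and Bmf, and the points of Bad lie on both sides of 0.

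The count of members called fell from 6 to 3 without WT 2, without KO 1 or without KO 3. Without WT 2, the members still called were Bcl2, Bcl2l1 and Bid, and 2740 genes in all were called. Without KO 1 the members were Bcl2, Bcl2l1 and Bak1, and 2904 genes in all were called. Without KO 3 the members were Bcl2, Bcl2l1 and Bmf, and 2986 genes in all were called. With all libraries kept, 4170 genes were called, so the number of calls fell over all genes as well.

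Since a BH3-only protein acts by binding its anti-apoptotic partner, the ratio within a library was also described. The log2 ratio of Bcl2l11 to Bcl2 counts was -1.01, -1.12 and -0.93 in WT and -1.13, -1.105 and -1.096 in KO. The KO values were tightly grouped and WT 2 fell among them, so the groups overlapped, with a difference of -0.089 against a WT SD of 0.095. This is a ratio of RNA counts without correction for length and carries no test.

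Levels of different genes were set side by side as CPM per kilobase of exon, using the union of all annotated exons. In WT the order was Mcl1, Bcl2a1b, Bak1, Bcl2, Bcl2l11, Bcl2l1, Bcl2a1d, Bid, Bad and Bmf. Mcl1 stood far above the rest, at 188.3 ± 2.93 CPM per kilobase in WT and 187.0 ± 0.337 in KO (SD, n = 3 each), which is 5.60 times the level of Bcl2a1b in WT and 4.93 times in KO. Bmf stood at the foot of the order, at 0.378 ± 0.037 in WT and 0.538 ± 0.104 in KO (SD, n = 3 each, CPM per kilobase), and Bad, the next above it, was 16.3 times as high in WT. In between, levels ranged from 6.14 ± 0.632 (Bad) to 33.6 ± 1.64 (Bcl2a1b) CPM per kilobase in WT (SD, n = 3 each). The libraries of Bcl2l11 and Bcl2l1 overlapped in WT, as did those of Bcl2l1 and Bcl2a1d, so these neighbours in the order did not differ beyond their spread. In KO, Bcl2, at 27.0 ± 0.15 CPM per kilobase (SD, n = 3), ranked above Bak1, whose mean was 25.2, but the libraries of Bak1 ran from 23.4 to 27.4 and overlapped with those of Bcl2. In WT, Bak1 ranked above Bcl2 with this length, at 28.1 ± 0.455 against 24.1 ± 0.449 CPM per kilobase (SD, n = 3 each), but below it with the longest transcript (28.3 against 30.7) or the mean coding transcript (41.1 against 44.0). The middle of the order depends on the length chosen, because the annotated exons of Bcl2 add up to 9157 bases and those of Bcl2a1b to 817. With the mean length of the coding transcripts, Bcl2 came next after Mcl1 in both groups, and Bcl2a1b dropped to rank 6 in WT and rank 5 in KO. Mcl1 was first and Bmf last with all 3 lengths, in both groups.

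**Figure D4:**
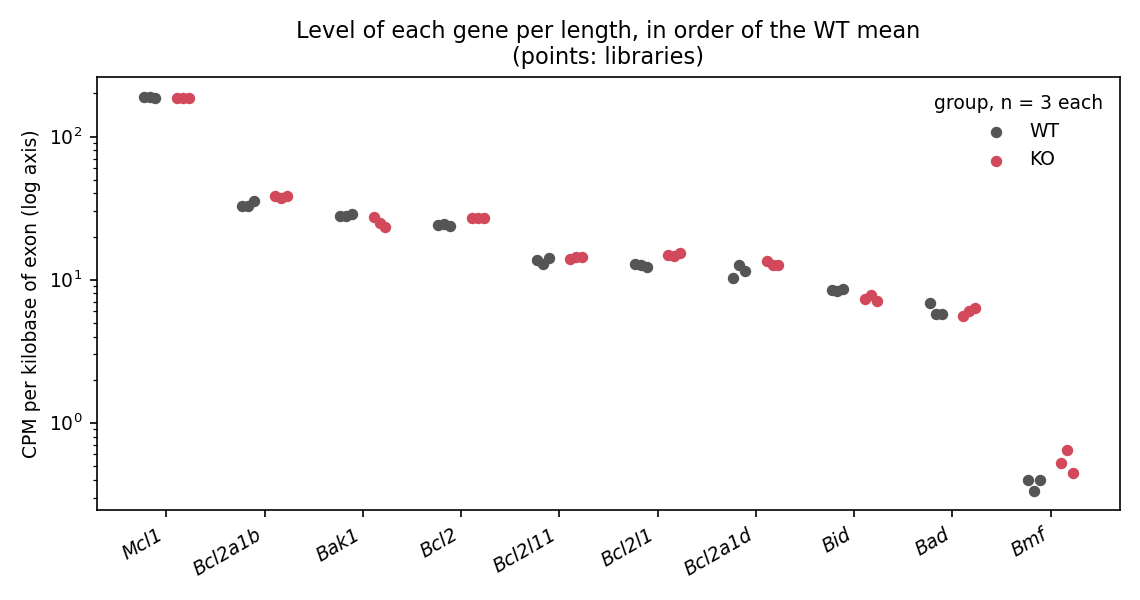
CPM per kilobase of exon (log axis) for each member in each library, in the order of the WT means, with WT in grey and KO in red. Mcl1 lies between 185.0 and 190.3 in all libraries and Bmf between 0.335 and 0.649, with the other 8 members between them.

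The rest of the family was followed in a list of 14 genes, of which 10 passed the expression filter, 4 rose and 1 fell. Among all genes tested 24.1% were called, and among those at or above the average level of Bmf 32.1%. The 3 genes set apart from the members all rose: the effector Bax from 104.4 ± 12.7 to 146.2 ± 3.37 CPM, and the BH3-only genes Bbc3 (Puma) from 64.9 ± 7.04 to 105.1 ± 4.65 CPM and Pmaip1 (Noxa) from 18.8 ± 2.21 to 32.4 ± 0.262 CPM (SD, n = 3 each). Their log2 fold changes were 0.48, 0.69 and 0.79 (adjusted p = 0.00166, 2.39e-05 and 2.23e-06 by edgeR). Those of Bmf and Bcl2l1, the members with the largest changes, were 0.53 and 0.25, so Bax lay below Bmf. In all 3 genes set apart, every KO library lay above every WT library. The effectors moved in opposite directions, with the interval of Bax (0.32 to 0.65) above 0 and that of Bak1 (-0.27 to -0.045) below 0. Bik, a BH3-only gene of the endoplasmic reticulum, fell from 1.63 ± 0.15 to 1.04 ± 0.231 CPM (SD, n = 3 each, log2 fold change -0.66, adjusted p = 0.0186 by edgeR). Bok, Hrk, Bcl2l10 and Bcl2a1c did not pass the filter. The median log2 fold change of the 10 tested genes was 0.062.

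Genes that act with the BCL2 proteins were taken from 4 further lists. Of 13 tested genes for the turnover or phosphorylation of BCL2 proteins, 5 rose and 2 fell (median log2 fold change 0.066). Of all genes tested, 24.1% were called in either direction, and of those at or above the average level of Bmf, 32.1%. Pim1, a kinase that phosphorylates Bad, rose from 1177 ± 55.0 to 1635 ± 14.5 CPM (SD, n = 3 each), a log2 fold change of 0.47 (adjusted p = 8.14e-07 by edgeR). Gsk3b, a kinase that primes Mcl1 for degradation, rose by 0.19 and Btrc, a substrate adaptor of a ubiquitin ligase, by 0.25 on the log2 scale (adjusted p = 0.00113 and 0.00192 by edgeR). Protein levels of the BCL2 members were not measured here.

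Downstream of the mitochondria, 3 of 14 tested apoptosome and caspase genes rose and none fell (median log2 fold change 0.0017), a share no higher than the 24.1% called among all genes tested. The risers were Birc2 and Birc3, ubiquitin ligases that inhibit apoptosis, and Htra2, a mitochondrial protease, with log2 fold changes of 0.24, 0.21 and 0.20 (adjusted p = 0.000334, 0.00229 and 0.00323 by edgeR). Of 9 death receptor pathway genes, which act upstream of Bid, 2 rose and 1 fell (median 0.051), a share near that of all genes tested at or above the level of Bmf (32.1%). Fasl rose from 3.94 ± 0.307 to 6.71 ± 0.142 CPM and the TRAIL receptor gene Tnfrsf10b from 9.58 ± 0.397 to 15.2 ± 0.564 CPM, while the kinase gene Ripk1 fell from 87.9 ± 1.18 to 78.3 ± 2.21 CPM (SD, n = 3 each, adjusted p = 2.63e-05, 5.36e-06 and 0.00457 by edgeR). Of 8 genes for receptor chains of IL-2 and IL-7, their kinases and STAT5, through which cytokines raise Bcl2 in T cells, 1 rose and 2 fell (median 0.032), which is also near that 32.1%. Stat5a rose by 0.22 on the log2 scale, whereas Il2ra (CD25, one of the markers used to sort the cells) fell by 0.15 and Il2rg, the common chain, by 0.10 (adjusted p = 0.000199, 0.00658 and 0.0326 by edgeR).

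Likeness was measured for Bmf and Bcl2l1, the called members with the largest fold changes, as the root mean square difference of log2 CPM centred on the WT mean over the 6 libraries. Of 9081 candidate genes (average log2 CPM no lower than 3), Nup50, Slc20a1 and Arid5a were nearest to Bcl2l1, with differences of 0.017, 0.018 and 0.021. The genes nearest to Bmf were Hspa2, Hic1 and Btg3, with differences of 0.12, 0.14 and 0.14. The log2 fold changes were 0.23, 0.25 and 0.24 for the genes nearest Bcl2l1 and 0.50, 0.51 and 0.52 for those nearest Bmf. A small difference thus mostly reflects a fold change of like size. The nearest of so many candidates are close by selection, so no shared regulation can be read from this measure.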

How the data were processed

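RNA-Seq gene counts of 6 libraries, 3 WT and 3 KO, were analyzed, with groups and replicate numbers from the labels. The deposited table gives unnormalized counts for each gene symbol. The submitters' processing notes name HISAT2, DESeq2 and mm10, while the counter, annotation and strand setting of this table are not given in the sources used here. Of its 32285 rows, 40 repeat a symbol, and no member is among them.

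The main fit used edgeR 4.0.16 (R 4.3.3) and its quasi-likelihood F-test (legacy method off, robust) on all genes kept by filterByExpr, with TMM scaling and Benjamini-Hochberg adjustment, and calls were made at an adjusted p under 0.05. It was tested on simulated independent counts with planted changes of at least 1.5-fold. That test does not cover the smaller changes of the members. Exact permutation tests of 3 against 3 libraries cannot go below p = 0.1. Intervals are 95% intervals from the standard error of the fit. CPM are TMM-scaled, with a prior count of 2 on the log scale.

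The members and gene lists were chosen with earlier results of these data known. Named genes are all members, up to 4 called genes of smallest p per pathway list, Bax, Bbc3, Pmaip1, Zfp335 and genes nearest to 2 members. Xist, Ddx3y, Eif2s3y, Bcl2a1a, Bcl2l13, Ggnbp1, Gpr137, D630008O14Rik and Gm29094 were named outside this rule, and values of some listed genes are not reported here.

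Positions, exon lengths, coding sequences and shared 50-base stretches come from GENCODE M21 (GRCm38), which holds 31461 of the symbols. The BH3 stretch was located in the translated coding sequence by a leucine followed, after 3 residues and 1 small or aliphatic residue, by an aspartate. The next residue had to be aspartate, glutamate, serine, glycine or glutamine, and the last phenylalanine, methionine, isoleucine or valine. A match with glycine before the aspartate was preferred, which decided between 2 matches in Bid.

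Same-numbered WT and KO libraries did not deviate together (correlations 0.028, 0.0082 and 0.033), and no pairing was assumed. Replicate libraries differed by more than the noise of independent counts (chi-square per degree of freedom at least 10.7). The counts may not be independent fragments, so this measure cannot tell whether replicates differed beyond sampling noise. The labels do not state that replicates are separate animals, so p-values may measure technical spread. Alternatives were other scalings, edgeR's legacy method, DESeq2 1.42.0, limma-voom (limma 3.58.1), other count filters, counts divided by 4, a replicate block, summed A1 copies, other lengths and leaving out each library. Removal of the trend on GC content or length was added after seeing the data.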

Additional observations from a re-analysis of the deposited data

How the results depend on the processing

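With other scalings, tools and filters, counts divided by 4 and the GC or length trend removed, the calls of all 10 members were unchanged, and so they were with the replicate number as a block, which gave 6 called members and 4227 called genes in all. In the paired fit Bcl2l1 had a log2 fold change of 0.25 (edgeR adjusted p = 0.000846) and Bak1 of -0.16 (edgeR adjusted p = 0.0377). Over the alternatives that kept all libraries, the log2 fold change of Bcl2 stayed between 0.13 and 0.17, that of Bcl2l1 between 0.22 and 0.25 and that of Bak1 between -0.19 and -0.15. Leaving out 1 library at a time moved the count of members called between 3 and 6, that of all genes between 2740 and 4996 and the log2 fold change of Bad between -0.089 and 0.052. Requiring a 1.5-fold change as well left 0 members and 967 genes. With the mean length of the coding transcripts, the member next to Mcl1 was Bcl2 in place of Bcl2a1b, and Mcl1 stood 6.84 times above it in WT. Of the 6 fits with a library left out, Bak1 was called in 2, Bcl2a1b and Bmf in 3 each and Bid in 4, and each of these fits rests on 5 libraries.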
